A study of Mus musculus with 54 samples.

Results

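This report describes 40 genes of sterol and fatty acid metabolism in mouse CD4+ T cells, taken by name from a fixed list of the enzymes that make cholesterol and fatty acids, the SREBP proteins that control them, and the LXR receptors with targets that export cholesterol. All 40 were found among the 55385 gene identifiers of both count tables. RNA was sequenced from 54 libraries in 18 conditions of 3 replicates each. The CD5/CD6 experiment (36 libraries) compared wild type (WT), Cd5-/-, Cd6-/- and Cd5-/-Cd6-/- cells, and the LAT experiment (18 libraries) compared WT with Lat-/- cells. CD5 and CD6 are receptors on the T cell surface, and LAT is the membrane adaptor that carries the signal of the T cell antigen receptor inward.

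All mice were on the C57BL/6 background and 8 to 10 weeks old. In the CD5/CD6 experiment naive CD4+ T cells were enriched with magnetic beads from pooled lymph nodes and spleens. The Cd5-/- line was backcrossed to C57BL/6, and the Cd6-/- and Cd5-/-Cd6-/- lines were made by CRISPR deletion. In the LAT experiment both genotypes were sorted by flow cytometry from the same Lat fl-dtr maT-Cre mice. WT cells there were those that still expressed the human diphtheria toxin receptor (hDTR+) and Lat-/- cells those that had lost it (hDTR-), so these WT cells also carried the floxed allele and the Cre transgene. The promoter that drives maT-Cre is not given in the sources used here. Cells were kept on plate-bound anti-CD3 (3 µg/ml) with soluble anti-CD28 (1 µg/ml) for 4 h or 20 h. The 0 h RNA was taken straight after purification, so time in culture and stimulation cannot be told apart.

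The libraries held 20554400 to 45222600 counted reads in the CD5/CD6 experiment and 17784600 to 28501100 in the LAT experiment. In the LAT experiment Lat stood at 92.2 to 351 CPM (read counts scaled to a common library total) in WT libraries and 5.69 to 19.1 CPM in Lat-/- libraries. WT libraries of the CD5/CD6 experiment held more, 459 to 1345 CPM of Lat. Each experiment was scaled within its own table, and this difference between the WT cells was not tested. Cd5 and Cd6 were each at most 0.663 CPM in the double knockout. At 0 h the library 2 labelled Cd5-/- held 719 CPM of Cd5 and 329 CPM of Cd6, against 105 to 129 and 1084 to 1298 CPM in the other two of that label. The 0 h library 2 labelled Cd6-/- held 172 CPM of Cd5 and 1203 CPM of Cd6, against 719 to 724 and 251 to 349 CPM in the other two. Both therefore go against their labels, and each is closer to the libraries of the other label. The main tests keep the labels as given, and the member counts of the comparisons that use these libraries are given with and without them. The 7 T cell markers summed to 3634 to 8594 CPM and 3868 to 10039 CPM in the 2 experiments. The 8 B cell markers summed to 1.39 to 725 CPM in the CD5/CD6 experiment and 0.579 to 5.15 CPM in the LAT experiment.

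Cholesterol is built from acetyl-CoA by way of mevalonate and squalene, and fatty acids from acetyl-CoA by way of malonyl-CoA. The genes of both routes are activated by SREBP-2 (Srebf2) and SREBP-1 (Srebf1), membrane-bound transcription factors that SCAP escorts to the Golgi when sterols are low and that INSIG proteins hold back when sterols are high. LXR receptors (Nr1h2, Nr1h3) sense oxysterols, which build up when sterols are plentiful, and activate genes that export cholesterol. Dividing T cells need new membrane and are known to make sterols and fatty acids after activation.

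SREBP proteins bind sterol regulatory elements next to NF-Y boxes, and LXR binds repeats of the DR4 type, so the sequences before the start sites of the members that the WT results turn on are shown. They are the 2 sterol enzymes with the largest change, the desaturase Fads2 and the transporter Abca1, each as the 250 bases before the RefSeq start site on the gene's own strand (build GRCm38.p6). Idi1 lies at chr13:8885356-8885605 (+), Idi2 at chr13:8952613-8952862 (+), Fads2 at chr19:10101504-10101753 (-) and Abca1 at chr4:53159896-53160145 (-). From Hmgcs1, at chr13:119690204-119690232 (+), only the 29 bases around its TCACNCCAC match are printed, chosen after the matches were seen. Capitals mark CCAAT on either strand in Idi1, CACGTG in Abca1 and TCACNCCAC in Hmgcs1.
Idi1: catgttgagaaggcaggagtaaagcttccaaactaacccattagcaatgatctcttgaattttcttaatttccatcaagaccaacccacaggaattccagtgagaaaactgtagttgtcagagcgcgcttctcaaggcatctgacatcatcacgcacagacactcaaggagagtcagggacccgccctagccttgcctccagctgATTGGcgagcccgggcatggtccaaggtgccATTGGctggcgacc
Idi2: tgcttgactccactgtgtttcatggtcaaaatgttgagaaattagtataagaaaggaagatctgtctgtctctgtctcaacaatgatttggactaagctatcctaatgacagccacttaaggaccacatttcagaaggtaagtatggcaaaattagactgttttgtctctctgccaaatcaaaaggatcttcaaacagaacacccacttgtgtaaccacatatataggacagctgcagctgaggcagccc
Fads2: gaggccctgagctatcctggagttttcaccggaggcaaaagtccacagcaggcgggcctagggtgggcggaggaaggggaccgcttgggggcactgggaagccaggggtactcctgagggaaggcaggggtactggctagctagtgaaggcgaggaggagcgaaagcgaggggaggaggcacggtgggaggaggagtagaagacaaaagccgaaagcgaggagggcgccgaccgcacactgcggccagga
Abca1: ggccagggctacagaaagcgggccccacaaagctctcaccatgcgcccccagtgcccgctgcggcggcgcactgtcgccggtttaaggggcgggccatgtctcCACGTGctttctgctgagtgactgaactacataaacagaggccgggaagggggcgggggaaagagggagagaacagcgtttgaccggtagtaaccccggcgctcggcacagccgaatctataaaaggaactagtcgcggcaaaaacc
Hmgcs1: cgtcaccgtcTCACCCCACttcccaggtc

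Windows of 300 bases (250 before to 50 after a start site) were found for 32 members, 7 of them with more than 1 window. In these, 5 motifs were searched on both strands. Fdps, Fdft1, Sqle, Stard4, Scd1, Scd2, Fads1 and Abcg1 had no window and were not searched. CCAAT, the NF-Y box, was present in 23 of the 32 (71.9%) and in 37.4% of all 32817 windows. A member with several windows had several chances. CACGTG, the E box, was present in 6 (18.8%) against 7.15% of all windows. TCACNCCAC, a sterol regulatory element, was present in 1 member (3.12%), Hmgcs1, at position -137 from the start site, against 1.24% of all windows. Only this form of the element was searched, so members without a match cannot be said to lack one. TCACGTGA, which contains the E box, was in 0 members and 0.975% of windows, and DR4 was in 0 members and 0.0152% of windows. These matches are letters only and were not read against binding data. The DR4 pattern as searched matched only 5 of all 32817 windows. Its 0 matches among the members therefore cannot tell whether Abca1 or other members hold an LXR site. The windows of Idi1 held 2 CCAAT matches, while the Idi2 and Fads2 windows held 0 matches to the 5 motifs.

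A gene was counted as changed when edgeR's quasi-likelihood test gave a fold above 2 and a Benjamini-Hochberg adjusted p under 0.05 over all genes with a read (32290 genes in the CD5/CD6 experiment, 27780 in the LAT experiment). Fold changes are given as log2 values with their standard error (SE). In WT controls of the CD5/CD6 experiment, 12 members were higher and 11 lower at 4 h than at 0 h, against 8.24% of all genes higher and 11.1% lower. At 20 h, 18 were higher and 6 lower than at 0 h (all genes: 12.3% and 17.3%). Between 4 h and 20 h, 14 rose and 4 fell (all genes: 8.74% and 12.2%). The median log2 fold change of the members was 0.06 at 4 h and 0.93 at 20 h, and that of all genes was 0 at both times. All genes include many with few reads, which can hardly pass. The edgeR filter on read counts (filterByExpr) kept 16143 and 13928 genes in the 2 experiments, while 39 and 38 members had a mean of 10 or more reads. Shares and medians over expressed genes alone were not computed, so all comparisons with all genes carry this limit. CPM values are shares of the reads of a library, so a change in RNA per cell was not measured, and fewer cells of a type and less RNA per cell cannot be told apart.

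WT controls of the LAT experiment gave like counts. At 4 h, 8 members were higher and 11 lower than at 0 h (all genes: 8.05% and 9.29%). At 20 h, 17 were higher and 5 lower (all genes: 10.8% and 12.7%), and from 4 h to 20 h, 17 rose and 4 fell (all genes: 7.9% and 9.32%). The member medians were 0.11 at 4 h and 0.86 at 20 h. Across both experiments, 8 members passed upward and 9 downward at 4 h, against 7.08% and 7.87% of the genes tested in both. At 20 h 16 passed upward and 5 downward (9.91% and 11.7%). Scd1 passed in opposite directions at 20 h.

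Sorted by these calls in WT cells, in classes set after the values were seen, the members fell into 4 patterns shared by both experiments and a remainder. 8 were already higher at 4 h (Hmgcs1, Idi1, Idi2, Sqle, Cyp51, Hsd17b7, Insig1 and Fasn). 5 were lower at 4 h and then rose from 4 h to 20 h (Mvk, Mvd, Tm7sf2, Dhcr7 and Scd2). 8 were higher at 20 h but not in both experiments at 4 h (Pmvk, Fdft1, Lss, Msmo1, Stard4, Acaca, Fads1 and Fads2). 5 were lower at 20 h (Acss2, Abca1, Abcg1, Nr1h3 and Mylip). The other 14 showed none of these in both. Enzymes of one route thus passed in opposite directions at 4 h.

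**Figure D1:**
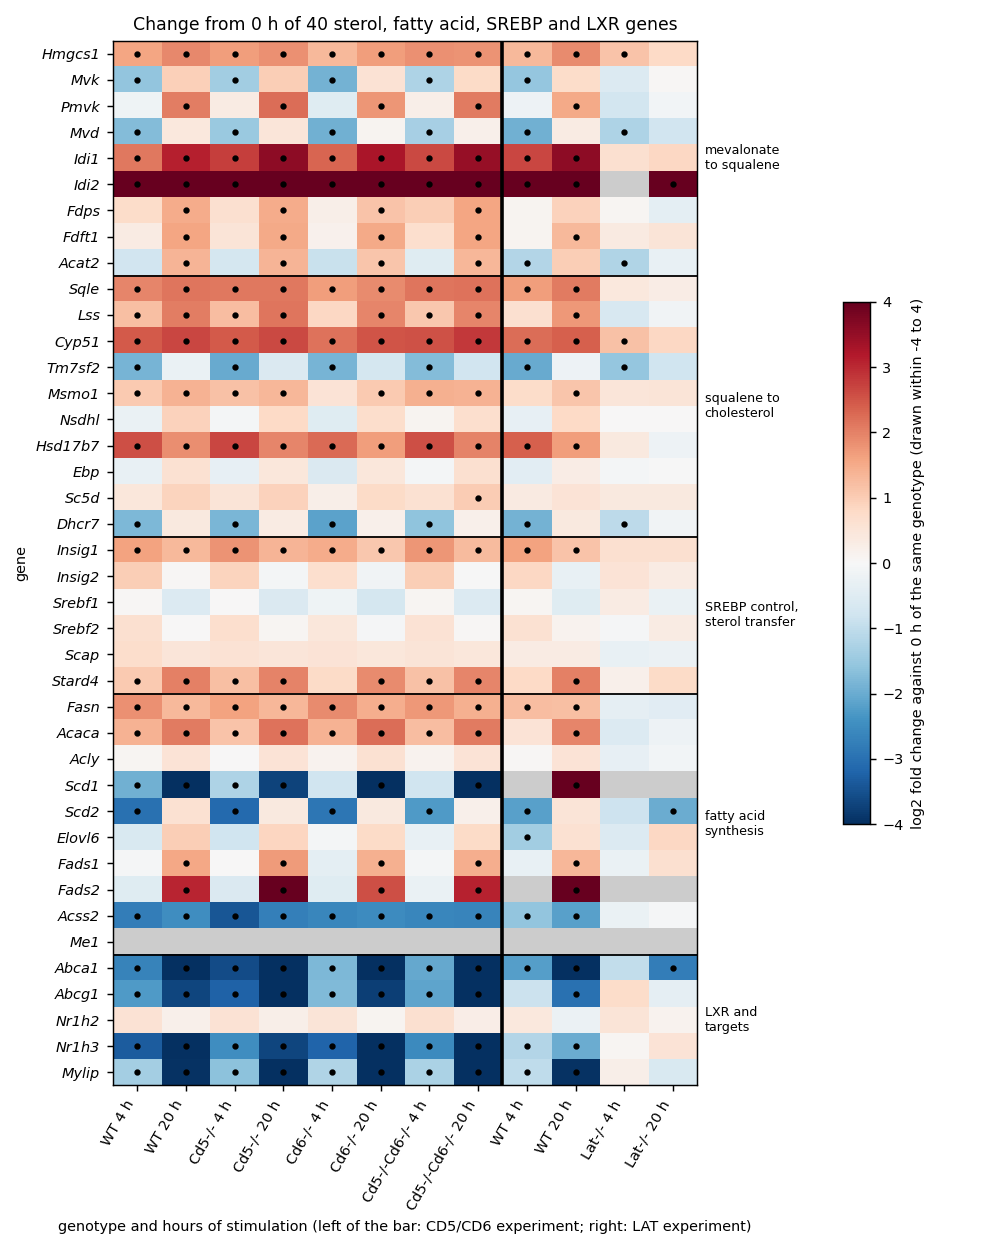
Log2 fold change of each member against 0 h of the same genotype (colour, limited to -4 to 4), with members in rows by role and conditions in columns. A dot marks a change that passed the test, and gray marks members for which neither group had 10 reads. The 4 genotypes of the CD5/CD6 experiment and the WT controls of the LAT experiment share the red and blue blocks at 4 h and 20 h, while the Lat-/- columns have 6 dots at 4 h and 3 at 20 h.

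Among the 9 genes from mevalonate to squalene, 3 rose in both experiments at 4 h. Hmgcs1, the synthase that feeds the pathway, stood at 45.7, 49.6 and 62.5 CPM in the WT libraries 1 to 3 of the CD5/CD6 experiment at 0 h, 146, 134 and 194 CPM at 4 h and 232, 187 and 173 CPM at 20 h. Its WT values in the other experiment were 43.3, 48.8 and 53.9, then 104, 135 and 119, then 163, 198 and 177 CPM. Every stimulated WT library of Hmgcs1 lay above every 0 h WT library. The change at 4 h was 1.59 ± 0.17 (SE; edgeR adjusted p = 2.48e-12) and 1.29 ± 0.15 (SE; edgeR adjusted p = 8.76e-16) in the 2 experiments, and at 20 h 1.91 ± 0.18 and 1.88 ± 0.16.

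Idi1, the isomerase that makes dimethylallyl diphosphate, was scarce at 0 h and climbed at both times. It stood at 1.50, 1.48 and 1.75 CPM at 0 h, 6.74, 4.87 and 8.87 CPM at 4 h and 11.9, 14.5 and 14.8 CPM at 20 h in WT controls of the CD5/CD6 experiment. The WT libraries of the LAT experiment held 0.784, 0.744 and 0.945, then 4.21, 6.51 and 5.28, then 8.82, 11.5 and 9.59 CPM. The times did not overlap in either experiment, and the 20 h change of Idi1 was 3.12 ± 0.30 (SE; edgeR adjusted p = 5.60e-15) and 3.58 ± 0.34 (SE; edgeR adjusted p = 2.76e-25). Idi2, a second isomerase gene, had 0 reads in all 6 WT libraries at 0 h. It reached 0.472, 0.699 and 0.248 CPM at 4 h and 2.26, 5.97 and 2.44 CPM at 20 h in WT controls of the CD5/CD6 experiment. In the LAT experiment WT cells held 0.0467, 0.275 and 0.113 CPM at 4 h and 2.40, 4.24 and 7.73 CPM at 20 h. Set against 3 reads over the 0 h group, Idi2 was at least 119.9-fold and at least 123-fold higher at 20 h. At 4 h Idi2 was at least 17.3-fold higher in the CD5/CD6 experiment and at least 3.74-fold higher, from 10 reads, in the LAT experiment, where the call was lost under DESeq2 (adjusted p = 0.232) and without replicate 2 (edgeR adjusted p = 0.0549). Per kilobase of exon, the Idi2 mean in WT cells at 20 h was 1.58 CPM beside 3.91 CPM for Idi1 in the CD5/CD6 experiment, and 2.13 beside 2.84 CPM in the LAT experiment.

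Mvd and Mvk, which act between those genes, moved the other way at 4 h. Mvd, the decarboxylase that makes isopentenyl diphosphate, stood at 24.2, 25.7 and 29.4 CPM at 0 h, 6.27, 7.85 and 9.83 CPM at 4 h and 38.7, 32.5 and 35.4 CPM at 20 h in the CD5/CD6 experiment. Its WT values in the LAT experiment were 30.4, 41.5 and 33.0, then 7.48, 7.51 and 12.3, then 40.0, 46.3 and 44.8 CPM. All 4 h values of Mvd lay below all others. The change was -1.73 ± 0.18 (SE; edgeR adjusted p = 3.28e-13) and -1.93 ± 0.18 (SE; edgeR adjusted p = 1.46e-24) at 4 h. Mvk, mevalonate kinase, dropped from 16.3 to 23.6 CPM to 5.44 to 7.56 CPM at 4 h and stood at 33.5 to 43.9 CPM at 20 h in the CD5/CD6 experiment. Mvk in the LAT experiment went from 21.0 to 26.4 to 6.40 to 10.2 and then 34.6 to 40.9 CPM. The Mvk change was -1.57 ± 0.20 (SE; edgeR adjusted p = 3.40e-10) and -1.54 ± 0.19 (SE; edgeR adjusted p = 5.04e-15) at 4 h. At 20 h it did not pass (0.96 and 0.73), although without replicate 3 the first was 1.01 and did.

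The remaining 4 genes of this stretch were called at 20 h in 1 or both experiments and not upward at 4 h. Pmvk, phosphomevalonate kinase, rose by 2.03 and 1.53 on the log2 scale at 20 h, and Fdft1, squalene synthase, by 1.57 and 1.30. Acat2, the cytosolic thiolase that joins acetyl-CoA units, rose by 1.35 in the CD5/CD6 experiment and was at 0.99, short of the fold limit, in the LAT experiment, where it had fallen by 1.18 at 4 h. Fdps, farnesyl diphosphate synthase, rose by 1.48 in the CD5/CD6 experiment and was at 0.93 in the LAT experiment. Fdps overlaps the protein-coding gene Gm43738 on the same strand, so its counts may depend on how shared reads were handled.

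Of the 10 genes from squalene to cholesterol, Sqle, Cyp51 and Hsd17b7 rose and Tm7sf2 and Dhcr7 fell at 4 h in both experiments. Cyp51 is lanosterol demethylase. Its WT libraries held 41.0, 46.2 and 76.4 CPM at 0 h, 306, 225 and 365 CPM at 4 h and 357, 342 and 340.0 CPM at 20 h in the CD5/CD6 experiment. Those of the LAT experiment held 40.7, 62.0 and 52.7, then 218, 305 and 204, then 277, 282 and 262 CPM. Every stimulated library of Cyp51 lay above every 0 h library, and the ranges at 4 h and 20 h overlapped. The 4 h change of Cyp51 was 2.45 ± 0.18 (SE; edgeR adjusted p = 1.59e-19) and 2.22 ± 0.16 (SE; edgeR adjusted p = 5.04e-44).

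Hsd17b7, which reduces the 3-keto sterol, had its highest values at 4 h. It stood at 9.18, 10.0 and 13.5 CPM at 0 h, 66.9, 55.5 and 75.2 CPM at 4 h and 44.8, 37.3 and 37.0 CPM at 20 h in the CD5/CD6 experiment. The WT values of the LAT experiment were 9.29, 8.14 and 10.7, then 40.0, 69.9 and 37.1, then 30.4, 33.5 and 26.2 CPM. The 4 h libraries lay above the 20 h libraries in both experiments, although the fall from 4 h to 20 h did not reach the fold limit (-0.73 and -0.70). The 4 h change of Hsd17b7 was 2.59 ± 0.17 (SE; edgeR adjusted p = 2.75e-22) and 2.38 ± 0.19 (SE; edgeR adjusted p = 9.14e-34). Sqle, squalene epoxidase, rose from 25.2 to 38.7 CPM to 101 to 146 CPM at 4 h and 129 to 151 CPM at 20 h in the CD5/CD6 experiment, and from 25.2 to 35.2 to 85.9 to 116 and 124 to 131 CPM in the LAT experiment. Its 20 h change was 2.14 ± 0.17 and 2.08 ± 0.16.

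Tm7sf2 and Dhcr7 act on the same route and fell while those 3 rose. Dhcr7, the reductase of the last step, stood at 58.7, 51.3 and 69.5 CPM at 0 h, 17.2, 13.9 and 20.8 CPM at 4 h and 88.2, 67.0 and 80.1 CPM at 20 h in the CD5/CD6 experiment. Across the LAT experiment WT values of Dhcr7 went from 55.4, 58.8 and 61.3 to 11.8, 17.0 and 18.5 and then 79.3, 78.8 and 69.8 CPM. The 4 h values of Dhcr7 lay below all others, and the change was -1.79 ± 0.16 (SE; edgeR adjusted p = 1.20e-15) and -1.89 ± 0.17 (SE; edgeR adjusted p = 9.69e-28). Tm7sf2, a sterol C14 reductase, dropped from 6.85 to 8.73 to 1.61 to 2.63 CPM and from 7.67 to 9.38 to 1.42 to 2.98 CPM in the 2 experiments at 4 h. It stood at 4.83 to 7.69 and 6.59 to 8.00 CPM at 20 h after a 4 h change of -1.86 ± 0.26 and -2.01 ± 0.28. Tm7sf2 overlaps Vps51 on the same strand, and how reads in the shared part were counted is not given in the sources used here.

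The other 5 genes of the group did not pass at 4 h in both experiments. Lss, which closes the sterol ring, and Msmo1, a methyl sterol oxidase, rose at 20 h in both experiments (Lss 2.03 and 1.74, Msmo1 1.40 and 1.11) and at 4 h in the CD5/CD6 experiment alone (1.19 and 1.05). Nsdhl, a sterol dehydrogenase, passed between 4 h and 20 h alone (1.17 and 1.11). Ebp, a sterol isomerase, and Sc5d, a sterol desaturase, passed at no time in WT cells, with values of 0.62 and 0.90 at 20 h in the CD5/CD6 experiment.

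Of the 6 genes that control SREBP or carry sterols, Insig1 and Stard4 rose. Insig1, which retains the SREBP escort in the endoplasmic reticulum and is itself an SREBP target, stood at 33.1, 31.3 and 36.4 CPM at 0 h, 97.8, 86.6 and 123 CPM at 4 h and 86.8, 75.9 and 86.4 CPM at 20 h. WT libraries of the other experiment held 26.9, 23.9 and 33.5, then 65.5, 101 and 88.8, then 61.3, 65.9 and 57.9 CPM. No stimulated library of Insig1 overlapped the 0 h range, and the change passed at 4 h and, at 20 h, was 1.30 ± 0.16 (SE; edgeR adjusted p = 8.59e-11) and 1.13 ± 0.16 (SE; edgeR adjusted p = 1.22e-11). Without replicate 2 the last value was 0.93, under the fold limit. Insig2, its paralog, was at 0.98 and 0.83 at 4 h, short of the fold limit, and at 0.05 and -0.30 at 20 h. Per kilobase, Insig1 exceeded Insig2 by 1.69 times at 0 h and 4.03 times at 20 h in the CD5/CD6 experiment, and by 1.28 and 3.46 times in the LAT experiment.

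Stard4, a sterol transfer protein, went from 37.8, 39.1 and 50.9 CPM at 0 h to 93.2, 74.1 and 98.3 CPM at 4 h and 202, 149.8 and 162 CPM at 20 h in the CD5/CD6 experiment. The WT values of Stard4 in the LAT experiment were 32.4, 32.2 and 39.3, then 50.1, 69.1 and 61.9, then 148, 146 and 122 CPM. The times did not overlap, and the 20 h change was 2.01 ± 0.17 (SE; edgeR adjusted p = 2.38e-17) and 2.00 ± 0.16 (SE; edgeR adjusted p = 2.47e-34). Srebf1, Srebf2 and Scap did not pass at any time in WT cells. Srebf2 was at 0.64 and 0.61 at 4 h, Srebf1 at -0.53 and -0.48 at 20 h, and Scap at 0.69 and 0.34 at 4 h. Per kilobase, Srebf2 exceeded Srebf1 in WT cells by 2.09, 3.18 and 3.08 times at 0, 4 and 20 h in the CD5/CD6 experiment and by 1.81, 2.64 and 2.75 times in the LAT experiment.

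Among the 10 genes of fatty acid synthesis and desaturation, Fasn, Acaca, Fads1 and Fads2 rose at 20 h in both experiments, and Acss2 fell. Fasn, fatty acid synthase, stood at 211, 243 and 249.6 CPM at 0 h, 896, 983 and 624 CPM at 4 h and 773, 611 and 359.5 CPM at 20 h in the CD5/CD6 experiment. Fasn in the WT libraries of the LAT experiment stood at 262, 195 and 218, then 572, 640.3 and 369, then 523, 551 and 486 CPM. All stimulated values lay above the 0 h values, with replicate 3 lowest after stimulation in the CD5/CD6 experiment. The 4 h change of Fasn was 1.83 ± 0.23 (SE; edgeR adjusted p = 1.81e-10) and 1.23 ± 0.15 (SE; edgeR adjusted p = 4.10e-15), and without replicate 2 the latter was 0.92, under the fold limit. Its 20 h change in the CD5/CD6 experiment, 1.31, was 0.98 without replicate 1, also under the limit. Acaca, the carboxylase that makes malonyl-CoA, went from 11.6 to 15.2 CPM to 34.6 to 66.3 CPM at 20 h in the CD5/CD6 experiment and from 11.5 to 12.4 to 43.5 to 49.4 CPM in the LAT experiment. Its 20 h change was 2.07 ± 0.24 (SE; edgeR adjusted p = 5.47e-12) and 1.97 ± 0.19 (SE; edgeR adjusted p = 4.35e-23).

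Fads2, the first desaturase of the polyunsaturated route, was near its floor until 20 h. Its WT values were 0.765, 0.271 and 0.970 CPM at 0 h, 0.882, 0.233 and 0.355 CPM at 4 h and 7.84, 4.83 and 4.00 CPM at 20 h in the CD5/CD6 experiment. In the LAT experiment 2 reads at 0 h stood against 196 reads at 20 h (2.27, 3.50 and 2.12 CPM). The 20 h values of Fads2 lay above all earlier ones, with a change of 3.04 ± 0.53 (SE; edgeR adjusted p = 1.25e-06) in the CD5/CD6 experiment and a read ratio of 105 (95% counting interval 28.6 to 872) in the LAT experiment. Fads1, the next desaturase, rose by 1.54 ± 0.16 and 1.32 ± 0.18 at 20 h. Per kilobase, Fads1 still exceeded Fads2 by 4.89 and 10.3 times at 20 h in WT controls of the 2 experiments.

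Scd2, a stearoyl-CoA desaturase, made the deepest dip of the members that recovered. It stood at 80.6, 103 and 119 CPM at 0 h, 13.4, 12.8 and 12.2 CPM at 4 h and 195, 133 and 132 CPM at 20 h in the CD5/CD6 experiment. In WT controls of the LAT experiment Scd2 stood at 81.2, 75.5 and 110.3, then 14.7, 22.9 and 21.8, then 125, 147 and 112 CPM. The 4 h values lay below all others. The Scd2 change was -2.98 ± 0.20 (SE; edgeR adjusted p = 1.98e-22) and -2.17 ± 0.16 (SE; edgeR adjusted p = 8.12e-39) at 4 h, and its rise from 4 h to 20 h was 3.58 ± 0.20 and 2.69 ± 0.17.

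Acss2, which makes acetyl-CoA from acetate, fell by 4 h and stayed low. It went from 126, 126 and 143 CPM at 0 h to 12.4, 19.0 and 27.3 CPM at 4 h and 23.7, 21.5 and 26.0 CPM at 20 h in the CD5/CD6 experiment. The WT values of Acss2 in the LAT experiment were 132, 123 and 129, then 36.3, 40.8 and 50.0, then 29.1, 30.1 and 26.2 CPM. No stimulated library reached the 0 h range, and the 20 h change was -2.48 ± 0.19 (SE; edgeR adjusted p = 7.02e-19) and -2.17 ± 0.16 (SE; edgeR adjusted p = 7.39e-41). Acss2 overlaps Ggt7 and Gss on the other strand. Elovl6, an elongase, rose from 4 h to 20 h (1.59 and 2.00), after a fall at 4 h that passed in the LAT experiment (-1.40) and not in the other (-0.61). Acly, ATP citrate lyase, was at 0.56 and 0.56 at 20 h and did not pass. Me1, malic enzyme, had 23 reads in all 36 libraries and 2 in all 18, too few to compare.

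Of the 5 genes of the LXR group, 4 fell at 20 h in both experiments. Abca1, a cholesterol exporter and LXR target, dropped the most at 20 h. Its WT values were 53.4, 46.1 and 36.0 CPM at 0 h, 5.54, 10.5 and 5.36 CPM at 4 h and 0.761, 0.663 and 0.343 CPM at 20 h in the CD5/CD6 experiment, and 44.2, 13.9 and 62.9, then 5.65, 10.9 and 9.85, then 0.984, 1.03 and 1.33 CPM in the LAT experiment. The times did not overlap in either experiment. The 20 h change was -6.22 ± 0.38 (SE; edgeR adjusted p = 2.30e-24) and -5.18 ± 0.23 (SE; edgeR adjusted p = 7.76e-106).

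Mylip, an LXR-induced ubiquitin ligase that targets lipoprotein receptors, stood at 92.7, 94.3 and 88.6 CPM at 0 h, 31.1, 39.7 and 36.0 CPM at 4 h and 5.58, 6.08 and 6.01 CPM at 20 h in the CD5/CD6 experiment. Mylip in the WT libraries of the LAT experiment stood at 101, 73.5 and 110.2, then 37.0, 42.1 and 60.6, then 5.56, 6.64 and 6.10 CPM. Each time lay below the one before, with a 20 h change of -3.96 ± 0.18 (SE; edgeR adjusted p = 2.34e-32) and -3.95 ± 0.18 (SE; edgeR adjusted p = 3.03e-108). Abcg1, another sterol exporter, went from 127 to 146 CPM to 9.44 to 13.1 CPM and from 139 to 164 to 17.7 to 20.6 CPM at 20 h, a change of -3.67 ± 0.20 and -2.99 ± 0.16.

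Of the receptors, Nr1h3 (LXR alpha) fell and Nr1h2 (LXR beta) did not pass. Nr1h3 went from 4.92 to 7.74 CPM at 0 h to 0.113 to 0.457 CPM at 20 h in the CD5/CD6 experiment and from 1.32 to 1.72 to 0.295 to 0.442 CPM in the LAT experiment. Nr1h2 stood at 112 to 121 and 101 to 119 CPM at 20 h. Per kilobase, Nr1h2 exceeded Nr1h3 by 12.4 times at 0 h and 257 times at 20 h in WT controls of the CD5/CD6 experiment, and by 63.6 and 214 times in the LAT experiment. The 9 myeloid markers, from cells in which Nr1h3 and Abca1 are also expressed, summed to 494 to 795 CPM at 0 h and 87.8 to 113 CPM at 20 h in WT controls of the CD5/CD6 experiment, and to 325 to 438 and 116 to 119.9 CPM in the LAT experiment. Cells of the LAT experiment were sorted by flow cytometry, and there Ctss alone held 316.6 to 429.6 CPM at 0 h and 112 to 116 CPM at 20 h in WT controls. Csf1r, Mpeg1 and Spi1 were at 0 reads in all 3 of those 20 h libraries, and Adgre1 in all 3 at 0 h. The part of these markers in the fall of the group was not tested.

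The CD5/CD6 experiment asks whether these receptors alter the response to stimulation. The numbers of members that passed in each knockout were close to those in WT. In Cd5-/- cells 12 members rose and 11 fell at 4 h (all genes: 8.2% and 11.3%), and 18 rose and 6 fell at 20 h (12.5% and 17.5%). In Cd6-/- cells the counts were 9 and 10 at 4 h (7.72% and 10.2%) and 18 and 6 at 20 h (11.4% and 16.8%). In Cd5-/-Cd6-/- cells they were 12 and 10 at 4 h (7.57% and 9.66%) and 19 and 6 at 20 h (12.3% and 18%). Without the 0 h libraries 2 of both single knockouts, the counts were 12 and 11, then 18 and 6 in Cd5-/- cells, and 9 and 11, then 17 and 6 in Cd6-/- cells. These comparisons use separate 0 h controls for each genotype.

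The mean level of Cyp51 at 20 h was 346 ± 9.42 CPM (SD, n = 3) in WT, 386 ± 24.2 in Cd5-/-, 322 ± 14.1 in Cd6-/- and 360.1 ± 8.20 CPM in Cd5-/-Cd6-/- cells. Against WT, the log2 difference of Cyp51 at 20 h had 95% intervals of -0.19 to 0.50, -0.45 to 0.24 and -0.29 to 0.40 in the same order. Dhcr7 at 4 h stood at 17.3 ± 3.45 CPM in WT and 18.2 ± 1.00, 14.0 ± 0.401 and 19.8 ± 3.22 CPM in the knockouts. Mylip at 20 h stood at 5.89 ± 0.271 CPM in WT and 5.66 ± 0.593, 5.32 ± 0.489 and 5.21 ± 0.597 CPM in the knockouts. Every knockout overlapped WT in these values except Cyp51, for which all 3 Cd5-/- libraries lay above and all 3 Cd6-/- libraries below the WT range.

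Direct comparison with WT by edgeR gave 1 member in Cd5-/- cells at 0 h (Scd1; 0.0619% of all genes) and 0 at 4 h (0.0743%) and 20 h (0.0186%), with 1, 5 and 0 members at an unadjusted p under 0.05. Cd6-/- cells gave 0 members at 0 h (0% of all genes), 4 h (0.0031%) and 20 h (0.0186%), with 2, 5 and 1 at an unadjusted p under 0.05. Cd5-/-Cd6-/- cells gave 0 at 0 h (0.0248%), 4 h (0.0434%) and 20 h (0.0434%), with 1, 5 and 2 at an unadjusted p under 0.05. DESeq2 called 0 members in all 9. By edgeR the 4 h and 20 h responses differed from WT in 0 members in Cd5-/- cells (0.0031% and 0.0031% of all genes), Cd6-/- cells (0% and 0.0031%) and Cd5-/-Cd6-/- cells (0% and 0%). Of these 6, unadjusted p under 0.05 was reached by 3 and 1, 2 and 1, and 2 and 0 members, and DESeq2 called 0. Without the 0 h libraries 2, the members at an unadjusted p under 0.05 at 0, 4 and 20 h numbered 3, 8 and 0 in Cd5-/- cells, 3, 5 and 1 in Cd6-/- cells and 1, 6 and 2 in Cd5-/-Cd6-/- cells. Fads2 was then added to the calls of Cd5-/- cells at 0 h (2 in all) and to the differences of the 20 h response (1 in all).

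Precision limits these comparisons less for the sterol enzymes than for scarce members. Of the 39 members with a mean of 10 or more reads, the 95% interval of the log2 difference from WT lay wholly between -1 and 1 in 34, 32 and 35 members for Cd5-/- cells at 0, 4 and 20 h. The numbers were 35, 34 and 34 for Cd6-/- cells and 36, 33 and 35 for Cd5-/-Cd6-/- cells. Without the 0 h libraries 2 they were 34, 33 and 36, then 34, 36 and 37, then 37, 35 and 36. Fads2, Idi2, Nr1h3, Scd1 and Abca1 were the members most often outside.

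**Figure D2:**
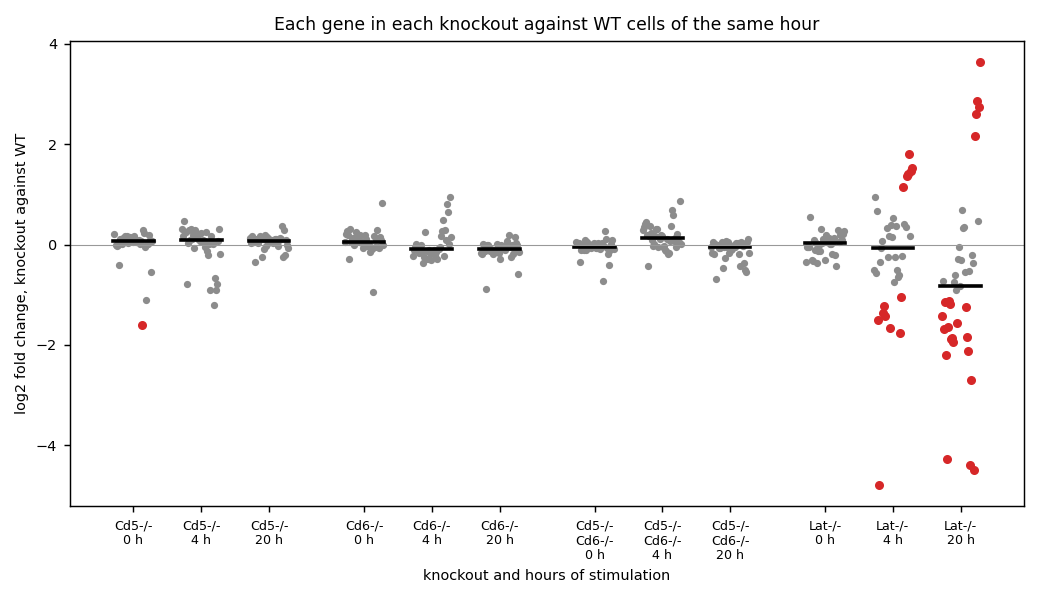
Log2 difference from WT of each member at 0, 4 and 20 h for the 3 knockouts of the CD5/CD6 experiment and for Lat-/- cells; each point is 1 member with 10 or more reads in a group. Bars are medians of the points drawn, values are the fitted ones also where a group had 0 reads, and red marks members that passed the test. The CD5/CD6 points gather around 0 with 1 red point (Scd1), while Lat-/- points spread in both directions at 4 h and mostly downward at 20 h.

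Abcg1 and Scd2, singled out after their values were seen, did not pass at 4 h in the knockouts. Abcg1 at 4 h stood at 22.2, 34.9 and 28.6 CPM in WT and 13.6, 17.7 and 18.7 CPM in Cd5-/- libraries. The values did not overlap, but the difference of -0.78 ± 0.19 (SE; edgeR adjusted p = 0.0718) did not pass. In Cd6-/- cells Abcg1 stood at 43.2, 55.3 and 35.9 CPM, above all WT values, with a difference of 0.65 ± 0.18 (SE; edgeR adjusted p = 0.666). Scd2 in Cd5-/-Cd6-/- cells at 4 h stood at 17.1, 20.1 and 24.5 CPM against 13.4, 12.8 and 12.2 CPM in WT, a difference of 0.68 ± 0.19 (SE; edgeR adjusted p = 0.391).

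Fads2 and Fads1 lie 615 kb and 520.2 kb from Cd5 on chromosome 19. At 0 h Fads2 stood at 0.0270, 0.831 and 0.148 CPM in the libraries 1 to 3 labelled Cd5-/-, of which library 2 goes against its label, and at 0.765, 0.271 and 0.970 CPM in WT. The other two Cd5-/- libraries lay below all WT libraries. The difference with all libraries was -1.11 ± 0.61 (SE; edgeR adjusted p = 1). At 20 h Fads2 was 8.98, 6.24 and 6.46 CPM in Cd5-/- cells, overlapping WT.

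Scd1, the other stearoyl-CoA desaturase, stood at 24.4, 13.5 and 83.1 CPM in WT at 0 h. The libraries 1 to 3 labelled Cd5-/-, of which library 2 goes against its label, held 12.1, 14.0 and 14.0 CPM. WT library 3 was far above the rest, and WT library 2 lay within the Cd5-/- range. The difference was -1.59 ± 0.34 (SE; edgeR adjusted p = 0.0290) and became -0.54 (edgeR adjusted p = 1) without replicate 3. Without the 0 h libraries 2 it was -1.63. DESeq2 did not call it (adjusted p = 1). Scd1 moved with the B cell markers: over the 12 libraries at 0 h its level was 8.68% to 13.8% of the summed B cell markers, and the library highest in one was highest in the other (83.1 and 725 CPM). In the LAT experiment, where these markers summed to at most 5.15 CPM at 0 h, Scd1 had 0 reads at 0 h.

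In WT cells Scd1 thus went in opposite directions in the 2 experiments. It fell to 1.35, 0.737 and 0.989 CPM at 20 h in the CD5/CD6 experiment, a change of -5.27 ± 0.42 (SE; edgeR adjusted p = 2.15e-18), while the B cell markers summed to 2.03 to 3.65 CPM. In the LAT experiment it reached 0.556, 0.848 and 0.707 CPM at 20 h, at least 18.5-fold higher than at 0 h against 3 reads over the group. The ranges of the 2 experiments at 20 h overlapped, each scaled within its own table. The part of B cell RNA in the Scd1 values was not tested.

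**Figure D3:**
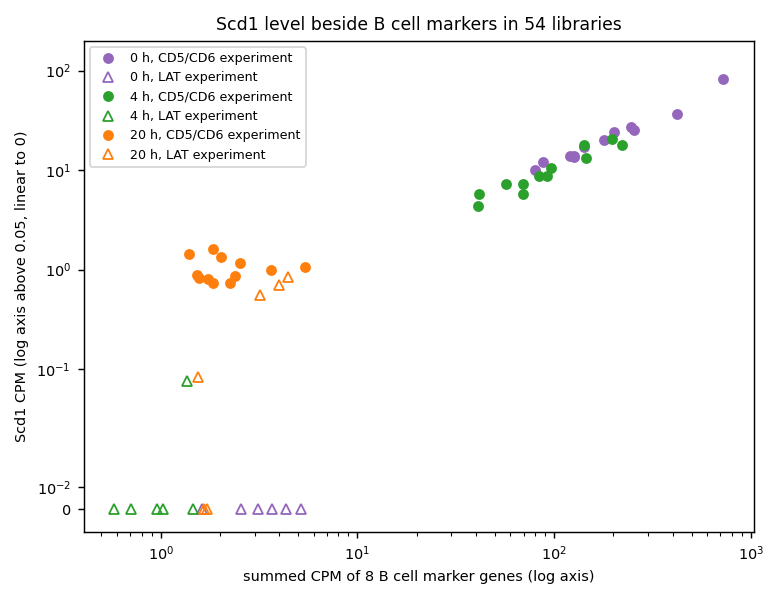
Scd1 CPM against the summed CPM of 8 B cell markers in each of the 54 libraries, coloured by experiment and time. The 12 libraries at 0 h of the CD5/CD6 experiment run from 10.0 to 83.1 CPM of Scd1 as the markers run from 79.8 to 725 CPM, and libraries at 20 h sit at 0 to 1.61 CPM of Scd1 with at most 5.43 CPM of the markers.

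The LAT experiment asks how much of the response needs LAT. Before stimulation no member differed between Lat-/- and WT cells by edgeR (0 higher and 0 lower, against 0.148% and 0.814% of all genes), 3 had an unadjusted p under 0.05, and DESeq2 called 0. In Lat-/- cells 2 members rose and 4 fell at 4 h (all genes: 3.08% and 3.62%), against 8 and 11 in WT. At 20 h 1 rose (Idi2, on reads of 1 library) and 2 fell (Abca1 and Scd2; 2.14% and 2.07%), against 17 and 5 in WT, and from 4 h to 20 h 2 rose and 3 fell (2% and 2.1%). The member medians in Lat-/- cells were 0.00 at 4 h and 0.01 at 20 h, beside 0 for all genes.

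Between genotypes, 6 members were higher and 8 lower in Lat-/- than in WT cells at 4 h (all genes: 5.51% and 6.23%), and 5 were higher and 18 lower at 20 h (12.1% and 12.3%). The response itself differed in 6 members upward and 7 downward at 4 h (4.37% and 4.34%) and in 5 and 14 at 20 h (10.1% and 9.35%). The member median of the difference between genotypes at 20 h was -0.86, beside 0 for all genes. Without replicate 2 the numbers lower at 4 h were 5 between genotypes and 3 in the response.

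The sterol enzymes were lower in Lat-/- cells at 20 h in 12 of 19 cases and higher in 0. Cyp51 stood at 31.6, 54.8 and 34.5 CPM at 0 h, 80.7, 98.2 and 92.6 CPM at 4 h and 68.8, 67.6 and 76.2 CPM at 20 h in Lat-/- cells, where WT cells reached 262 to 282 CPM. The Lat-/- libraries overlapped no WT library after stimulation. Cyp51 still rose at 4 h in Lat-/- cells (1.17 ± 0.15 (SE; edgeR adjusted p = 1.39e-12)), with a response smaller than in WT by 1.06 ± 0.21 (SE), a call that was lost without replicate 2. At 20 h the difference between genotypes was -1.95 ± 0.15 (SE; edgeR adjusted p = 6.05e-35).

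Hmgcs1 kept its 4 h rise. It stood at 32.5, 43.1 and 39.8 CPM at 0 h, 70.2, 84.3 and 97.9 CPM at 4 h and 65.8, 64.1 and 70.9 CPM at 20 h in Lat-/- cells, and all stimulated libraries lay above the 0 h ones. The 4 h response of Hmgcs1 in Lat-/- cells was 1.13 ± 0.15 (SE; edgeR adjusted p = 1.56e-11), and its difference from the WT response was -0.17 ± 0.22 (SE; edgeR adjusted p = 0.864), with a 95% interval of -0.59 to 0.26. By 20 h its level was -1.42 against WT.

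The 4 h rise of Idi1, Hsd17b7 and Sqle did not pass in Lat-/- cells. Idi1 stood at 0.494, 2.14 and 0.976 CPM at 0 h, 1.45, 1.88 and 2.34 CPM at 4 h and 2.58, 1.97 and 1.98 CPM at 20 h in Lat-/- cells, where the 3 times overlapped. Its response differed from WT by -2.04 ± 0.48 (SE; edgeR adjusted p = 0.000257) at 4 h, a call that was lost without replicate 2 (-1.09; edgeR adjusted p = 0.248), and by -2.74 ± 0.47 (SE; edgeR adjusted p = 5.87e-08) at 20 h. Hsd17b7 stood at 11.9, 11.4 and 11.7 CPM at 0 h and 13.4, 16.8 and 16.0 CPM at 4 h, and its 4 h response differed by -1.98 ± 0.26 (SE; edgeR adjusted p = 5.89e-12). Sqle at 20 h stood at 35.3, 30.0 and 39.0 CPM in Lat-/- cells, overlapping its 0 h values (20.2 to 35.4 CPM), and -1.88 against WT.

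Idi2 had 0 reads in all Lat-/- libraries at 0 h and 4 h and 0, 0 and 0.715 CPM at 20 h, so that 1 library held all 17 reads. At 4 h Idi2 was at least 2.89-fold lower than in WT (edgeR adjusted p = 0.00681), a call lost under DESeq2 (adjusted p = 0.263) and without replicate 2 (edgeR adjusted p = 0.0978). At 20 h its difference was -4.28 ± 0.58 (SE; edgeR adjusted p = 1.00e-12), lost under DESeq2 (adjusted p = 0.149).

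The members that dipped at 4 h in WT cells did so in Lat-/- cells in part. Mvd stood at 14.5, 16.1 and 13.0 CPM at 4 h against 30.1, 39.3 and 32.3 CPM at 0 h, a fall that passed (-1.22 ± 0.18 (SE; edgeR adjusted p = 3.83e-10)). The 4 h values of Mvd lay below the 0 h values and above those of WT cells. Tm7sf2 (-1.55), Dhcr7 (-1.05) and Acat2 (-1.20) also fell. Mvk did not pass (-0.54), and its response differed from WT by 1.00 ± 0.26 (SE; edgeR adjusted p = 0.00141). The return by 20 h was smaller, since Mvd was -1.14 against WT at that time and Dhcr7, short of the fold limit, -0.82.

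The other sterol genes lower at 20 h in Lat-/- cells were Pmvk (-1.68), Fdps (-1.65), Fdft1 (-1.13), Acat2 (-1.19) and Lss (-1.86), on the log2 scale. Hsd17b7 was at -1.56. Msmo1, Nsdhl, Ebp, Sc5d, Mvk, Tm7sf2 and Dhcr7 did not pass, with values of -0.91 to -0.04. Of the control and transfer genes only Stard4 was lower (-1.24), at 55.6, 68.1 and 52.2 CPM against 148, 146 and 122 CPM in WT. Srebf1, Srebf2, Scap, Insig1 and Insig2 ranged from -0.56 to 0.69 and did not pass.

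In fatty acid synthesis, Fasn stood at 218, 197 and 179 CPM at 0 h, 151, 143 and 170.3 CPM at 4 h and 148, 139 and 146 CPM at 20 h in Lat-/- cells. All stimulated Lat-/- libraries of Fasn lay below their own 0 h libraries and far below WT. Its 4 h response differed by -1.58 ± 0.21 (SE; edgeR adjusted p = 4.64e-12), and its level at 20 h was -1.85 against WT. Acaca stood at 11.6, 9.20 and 11.6 CPM at 20 h, below WT by 2.12 ± 0.20 (SE) on the log2 scale. Fads2 had 0, 0.0742 and 0.252 CPM at 20 h, a difference of -4.49 ± 0.71 (SE; edgeR adjusted p = 2.22e-09), whereas Fads1 did not pass (-0.37). Scd1 had 2 reads in Lat-/- cells and 52 in WT at 20 h.

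Scd2 and Acss2 differed in direction between the times or from the enzymes above. Scd2 stood at 66.6, 74.8 and 89.0 CPM at 0 h, 48.4, 53.6 and 28.8 CPM at 4 h and 19.6, 17.4 and 21.7 CPM at 20 h in Lat-/- cells. It was above WT at 4 h and below WT at 20 h in every library, with response differences of 1.35 ± 0.22 (SE; edgeR adjusted p = 3.76e-08) and -2.50 ± 0.22 (SE; edgeR adjusted p = 2.22e-27). Acss2 stood at 138, 130.1 and 128 CPM at 0 h, 118, 139 and 72.5 CPM at 4 h and 123, 140.0 and 122 CPM at 20 h. Apart from the 4 h library 3, the stimulated libraries lay close to the 0 h values, and all 6 lay above every stimulated WT library, with response differences of 1.32 ± 0.22 (SE; edgeR adjusted p = 2.87e-08) and 2.12 ± 0.22 (SE; edgeR adjusted p = 4.93e-21).

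Of the 5 genes of the LXR group, 4 were higher in Lat-/- than in WT cells at 4 h and at 20 h. Mylip stood at 111, 106 and 129 CPM at 0 h, 129.6, 143 and 129.5 CPM at 4 h and 73.0, 86.6 and 68.9 CPM at 20 h in Lat-/- cells, against 5.56 to 6.64 CPM in WT at 20 h. No stimulated library overlapped between genotypes. Its level was above WT by 3.64 ± 0.17 (SE; edgeR adjusted p = 8.94e-94) at 20 h, the smallest adjusted p of the members, and its response differed by 3.36 ± 0.23 (SE; edgeR adjusted p = 4.35e-47). Abcg1 stood at 172, 166 and 184, then 302, 351 and 209, then 139, 145 and 127 CPM in Lat-/- cells. The 4 h values were the highest of the LAT experiment, and the response of Abcg1 differed by 1.59 ± 0.21 (SE; edgeR adjusted p = 4.65e-12) at 4 h and 2.64 ± 0.22 (SE; edgeR adjusted p = 2.75e-32) at 20 h.

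Abca1 fell in Lat-/- cells too, but less. It stood at 45.4, 34.5 and 59.0 CPM at 0 h, 24.0, 19.9 and 25.8 CPM at 4 h and 7.18, 7.68 and 5.51 CPM at 20 h, with no overlap between times. The change at 20 h was -2.77 ± 0.20 (SE; edgeR adjusted p = 3.48e-42), smaller than in WT by a difference of 2.41 ± 0.29 (SE; edgeR adjusted p = 5.84e-15). Nr1h3 stood at 2.38, 3.49 and 1.98 CPM at 20 h against 0.428, 0.295 and 0.442 CPM in WT, a difference of 2.75 ± 0.48 (SE; edgeR adjusted p = 5.59e-08). Its 4 h difference of 1.47 fell to 0.95 (edgeR adjusted p = 0.194) without replicate 2. Nr1h2 did not pass (0.47 at 20 h). The summed myeloid markers ran from 526 to 651 CPM in Lat-/- libraries at 20 h and from 116 to 119.9 CPM in WT. Ctss made up 506.6 to 634 CPM of the former and 112 to 116 CPM of the latter, and Fcgr3 stood at 11.0 to 15.3 against 0.0369 to 0.385 CPM. Of the 9 markers 2, 3 and 2 were at 0 reads in the Lat-/- libraries and 5, 5 and 3 in the WT libraries, and Lyz2 was at 0 in all 3 Lat-/- libraries. Both genotypes were sorted by flow cytometry, and the part of these markers in the results was not tested.

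**Figure D4:**
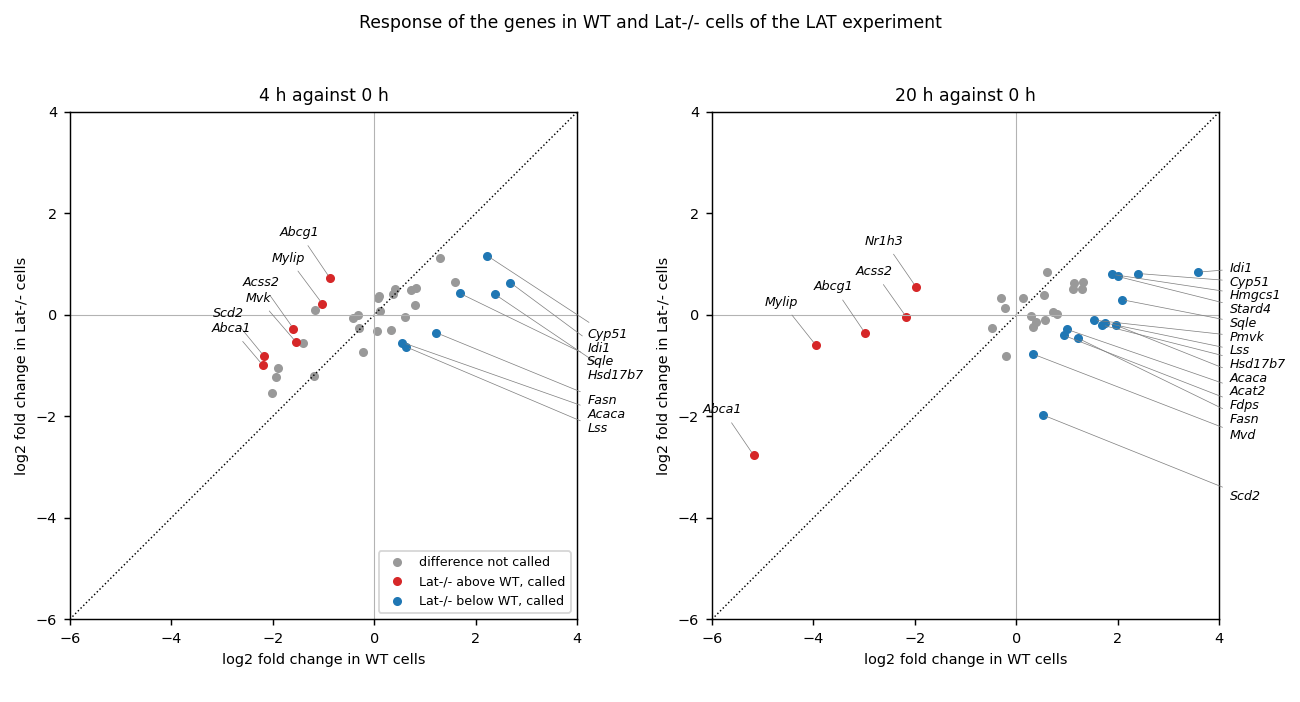
Log2 response against 0 h in Lat-/- cells (vertical) plotted on that in WT cells (horizontal) at 4 h and 20 h, 1 point per member with more than 3 reads at 0 h, with the line of equal response. Red and blue mark members whose response was higher or lower in Lat-/- cells by the test. At 20 h the sterol and fatty acid enzymes that rose in WT cells lie below the line, and Abcg1, Mylip and Acss2 lie above it.

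A further 29 genes of the same pathways, on a list kept apart from the 40, were tested in the same fits. In WT controls of the CD5/CD6 experiment 11 rose and 5 fell at 4 h (all genes: 8.24% and 11.1%), and 11 and 3 at 20 h (12.3% and 17.3%). In those of the LAT experiment 7 rose and 5 fell at 4 h (8.05% and 9.29%), and 9 and 4 at 20 h (10.8% and 12.7%). In Lat-/- cells 1 rose and 2 fell at 4 h (3.08% and 3.62%), and 0 and 2 at 20 h (2.14% and 2.07%). Lat-/- cells differed from WT in 5 upward and 3 downward at 4 h (5.51% and 6.23%) and in 3 and 6 at 20 h (12.1% and 12.3%). Aacs, which activates acetoacetate, was -1.14 against WT at 20 h, and Slc25a1, the mitochondrial citrate carrier, -1.70. Smpdl3a, an LXR target, was above WT by 1.49 at 4 h and 4.64 at 20 h. Npc2, a lysosomal sterol carrier, and Elovl5, an elongase, were above WT at both times (Npc2 1.29 and 1.51, Elovl5 1.03 and 1.06). Rxra, the partner receptor of LXR, went from 1.33 at 4 h to -1.20 at 20 h, and Acacb, the mitochondrial carboxylase, from 2.62 to -1.99. Acacb had few reads, 79, 55 and 7 in Lat-/- libraries and 7, 16 and 2 in WT libraries at 4 h, and 0, 0 and 9 against 8, 13 and 17 at 20 h. Hsd17b12, a fatty acid elongation enzyme, was lower at both times (-1.40 and -1.18), and Stard3 (-1.21) and Acsl4 (-1.32) at 4 h.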

How the data were processed

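RNA was sequenced from poly(A)-selected, strand-marked libraries of CD4+ T cells. The authors aligned reads with STAR and deposited raw read counts per gene from featureCounts (1.6.0 per the methods), 1 table per experiment, which were used as deposited. The strand setting of the counting is not given in the sources used here, so reads of overlapping genes on opposite strands cannot be told apart. Of 55385 identifiers, 55144 matched a gene symbol. Counts were scaled by TMM and tested with edgeR (4.0.16, R 4.3.3) quasi-likelihood fits, 1 per experiment over all its groups, with p-values adjusted by Benjamini and Hochberg over all genes with a read. A change passed at a fold above 2 and an adjusted p under 0.05. SE is the log2 fold change divided by the square root of F. DESeq2 (1.42.0), RLE scaling, library totals, filterByExpr, the adjusted p alone, the compared groups alone, a replicate block and leaving out each replicate were alternatives, and leaving out both 0 h libraries 2 was added after seeing the data. On simulated counts edgeR made more false calls than its nominal rate where the simulated dispersion varied from gene to gene, and DESeq2, simulated for the LAT experiment, made fewer there but more than edgeR where the dispersion followed the trend. This bears most on borderline calls such as Scd1 in Cd5-/- cells. The simulation with dispersions that varied from gene to gene exceeded the limit first set on false calls. A simulation with trended dispersions was then added, and the limit was kept for that one only.

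Depth was 20554400 to 45222600 reads per library in the CD5/CD6 experiment and 17784600 to 28501100 in the LAT experiment. Intervals on read ratios and floors of 3 reads cover counting error only. p-values rest on a spread estimated once per experiment over all its groups and moderated across genes, not on the 3 libraries of a condition alone. A gene with a wide spread in 1 group, such as Abca1 in WT at 0 h of the LAT experiment, can therefore still have a small SE. Whether the 3 libraries of a condition came from separate mice is not given in the sources used here. Promoter windows came from RefSeq (GRCm38.p6). The members and lists were chosen with earlier results of these data known. Genes named with values in each library were, per role group and direction, up to 3 with the largest log2 fold change among those that passed in WT cells of both experiments, every call between a knockout and WT, up to 6 differences of response per comparison, and paralog pairs; Abcg1, Scd2 and Fads2 in the CD5/CD6 knockouts were singled out after their values were seen. The WT pattern classes, the choice among readings of the promoter rule and the Hmgcs1 stretch were settled after values were seen. Same-numbered libraries deviated together in every pair (r above 0.1) in 10 of 18 comparisons of the CD5/CD6 experiment and 1 of 9 of the LAT experiment. Cd6-/- against WT at 0 h was among the former (r of 0.320 to 0.555). The main test did not take the numbers as pairs, and the replicate block was run as an alternative. The values of 1 gene on the list of other pathway genes are not reported here.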

Additional observations from a re-analysis of the deposited data

Results flagged for a closer look

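Results are listed here because the effect of stimulation differed between 2 groups of cells. The response differed between Lat-/- and WT cells, by the test of that difference (edgeR, fold above 2, adjusted p under 0.05), in 13 members at 4 h (6 higher and 7 lower, against 4.37% and 4.34% of all genes) and 19 at 20 h (5 and 14, against 10.1% and 9.35%). The difference of the 20 h response, Lat-/- minus WT on the log2 scale, was 3.36 for Mylip, 2.64 for Abcg1, 2.54 for Nr1h3 and 2.41 for Abca1. It was -2.74 for Idi1 and -2.50 for Scd2. At 4 h the difference was 1.59 for Abcg1, 1.35 for Scd2 and 1.32 for Acss2. It was -2.04 for Idi1, -1.98 for Hsd17b7 and -1.58 for Fasn. Scd2 thus stood out at both times, in opposite directions. Scd1 changed by -5.27 (log2) at 20 h in WT controls of the CD5/CD6 experiment and was at least 18.5-fold higher at 20 h in WT controls of the LAT experiment. That difference was not tested, because the tables are separate.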

How the results depend on the processing

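Over all alternatives, 544 recomputed counts of members that passed stayed within 1.5 times the reported count and 39 did not. Of the recomputed fold changes of named genes, 1142 kept their direction and their side of the threshold, 27 no longer passed, 2 newly passed and 0 changed direction.

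With the adjusted p alone, without the fold limit, more members passed by construction. The share of all genes at this looser limit was not computed, so the counts below cannot be set against it. In WT controls of the CD5/CD6 experiment 28 were then higher at 20 h than at 0 h and 9 lower at 20 h than at 4 h. At 4 h the double knockout had 19 higher members, Cd5-/- cells 19 and Cd6-/- cells 16. In WT controls of the LAT experiment 15 were higher at 4 h and 10 fell from 4 h to 20 h. In Lat-/- cells 8 rose and 10 fell at 4 h, 9 rose and 6 fell at 20 h, and 8 rose and 6 fell between those times. Against WT at 4 h 14 were lower in Lat-/- cells, and the 4 h response was lower in 11.

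The single call of Cd5-/- against WT cells at 0 h (Scd1) became 0 with RLE factors, with library totals, with filterByExpr and with DESeq2, and 2 (Scd1 and Fads2) without the 0 h libraries 2. The difference of the 20 h response of Cd5-/- cells became 1 with the compared groups alone (Scd1) and 1 without the 0 h libraries 2 (Fads2). The rise of Idi2 in Lat-/- cells at 20 h gave 0 calls with filterByExpr and DESeq2, and between 4 h and 20 h 1 call was left with each. Idi2 at 4 h in WT controls of the LAT experiment was lost with filterByExpr, with DESeq2 and without replicate 2. The causes of these changes were not tested.

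Leaving out 1 replicate at a time gave 0 to 2 calls for Cd5-/- against WT at 0 h, 0 to 2 at 4 h, 0 to 1 for its 4 h response and 0 to 2 for its 20 h response. It gave 0 to 1 for Cd6-/- and 0 to 1 for Cd5-/-Cd6-/- cells at 0 h. In Lat-/- cells it gave 0 to 3 rises at 20 h and 1 to 3 falls from 4 h to 20 h. Against WT at 4 h it gave 5 to 8 lower members, and 3 to 8 with a lower response. Replicate 2 of the LAT experiment set the lowest of the last 3: without it the calls of Idi2, Lss and Acaca against WT, and of Idi1, Lss, Cyp51 and Acaca in the response, were lost.

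With the replicate block the counts in WT cells at 4 h in the CD5/CD6 experiment were 13 higher and 11 lower, 13 were higher in Cd5-/-Cd6-/- cells, and Lat-/- against WT at 20 h stayed at 5 and 18. The block changed no count by over 1.5 times, and pairwise correlations of same-numbered libraries ran from 0.017 to 0.555 in the CD5/CD6 experiment and -0.189 to 0.284 in the LAT experiment. With 3 libraries per group, members of few reads (Idi2, Scd1, Fads2, Nr1h3 and Me1) are the least certain.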
